A study of Mus musculus with 3 samples.

Results

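The 39 mouse Hox genes of the HoxA, HoxB, HoxC and HoxD clusters were read here in single-nucleus chromatin accessibility data from dorsal skin. All genes with a symbol of Hoxa, Hoxb, Hoxc or Hoxd followed by a number were taken from the GRCm38.p6 annotation, 11 in HoxA on chromosome 6, 10 in HoxB on chromosome 11, 9 in HoxC on chromosome 15 and 9 in HoxD on chromosome 2. Each gene was given the deposited accessible regions (features) that overlap its body or the 2 kb on either side, its window. A feature lay in the window of 37 of the 39 genes; Hoxd12 and Hoxd13 had none and carry no value. The windows held 205 of the 315694 features, and 43 of the 205 lay in more than 1 Hox window.

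The nuclei came from Dct-rtTA; Tre-H2B-GFP mice, all given doxycycline (20 mg per 100 ml of drinking water) for 5 days, which labels cells that use the Dct promoter, and were sorted for GFP. There were 3 conditions: telogen, the resting phase of the hair follicle (12 mice); anagen, the growth phase, brought on by depilation with Nair cream (8 mice); and UVB at 2.2 mJ/cm2 given 3 times (24 mice). The age is 7 weeks in the treatment text and 8 weeks in the sample characteristics. Telogen and anagen share 1 library, and UVB was made as technical replicate pools A and B that the nuclei cannot be assigned to, so there is 1 sample per condition of pooled mice, UVB and its library cannot be told apart, and no test across samples was possible.

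Hox genes encode homeodomain transcription factors that give cells their address along the body axis. Within a cluster the genes lie in the order in which they act: low-numbered genes toward the head, high-numbered genes toward the tail and the distal limb. Melanocytes of the trunk come from the neural crest, keratinocytes from the ectoderm and fibroblasts of the back from the mesoderm. Adult skin fibroblasts are known to keep a Hox pattern of their site of origin. Genes that are not in use are held silent by Polycomb complexes, which Trithorax proteins oppose, and TALE-class cofactors of the PBX and MEIS families bind DNA with HOX proteins.

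The nuclei were clustered with all 309 features within 100 kb of a Hox gene left out, so the Hox values did not define the classes. Classes were named from marker genes of each cell type, and although the sort was for a label driven by the Dct promoter, 6.12% of telogen, 25.5% of anagen and 24.8% of UVB nuclei were melanocyte-like. The melanocyte-like class (clusters 1 and 7) had 125 telogen, 957 anagen and 1625 UVB nuclei; in the same order there were 215, 519 and 803 fibroblast-like nuclei (clusters 4 and 10), 438, 328 and 1444 keratinocyte-like nuclei (clusters 3 and 5) and 619, 865 and 426 endothelial-like nuclei (cluster 0). All 13 melanocyte markers had counts in the melanocyte-like nuclei of each condition, at 6.68 to 9.29 CPM (counts per 1000000 counts of the class) per feature, against 0.889 to 1.59 in the other 3 classes. The melanocyte-like class was made of different nuclei in different conditions: cluster 1 gave 122 of the 125 telogen and 1583 of the 1625 UVB nuclei, and cluster 7 gave 788 of the 957 anagen nuclei. After removal of second copies of the same nucleus, 2042, 3753 and 6554 nuclei with 5225945, 10397896 and 16183702 counts remained, and 506 of the kept barcodes occurred in more than 1 condition.

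The promoters below are those listed in the reference that overlap a leading Hox feature of endothelial-like or keratinocyte-like nuclei. Each is the 250 bases before the start given by RefSeq (GRCm38.p6), 5′ to 3′ on the gene's strand, and capitals mark the bases inside a deposited feature. The Hoxd10 stretch is chr2:74691641-74691890 on the plus strand, the Hoxd9 stretch chr2:74697513-74697762 on the plus strand and the Hoxa5 stretch chr6:52204588-52204837 on the minus strand. The Hoxd10 and Hoxd9 stretches meet the endothelial-like features ranked 1 and 3 by counts among all Hox features, and the Hoxa5 stretch meets the keratinocyte-like feature ranked 1. The top 3 fibroblast-like features overlap no listed promoter, so no sequence is shown for them.
Hoxd10: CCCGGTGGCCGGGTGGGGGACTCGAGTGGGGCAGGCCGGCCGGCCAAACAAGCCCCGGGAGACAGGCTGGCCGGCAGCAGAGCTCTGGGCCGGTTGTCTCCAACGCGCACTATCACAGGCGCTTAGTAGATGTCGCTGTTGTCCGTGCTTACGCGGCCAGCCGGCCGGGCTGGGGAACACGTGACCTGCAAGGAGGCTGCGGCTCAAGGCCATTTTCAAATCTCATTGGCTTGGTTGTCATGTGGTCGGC
Hoxd9: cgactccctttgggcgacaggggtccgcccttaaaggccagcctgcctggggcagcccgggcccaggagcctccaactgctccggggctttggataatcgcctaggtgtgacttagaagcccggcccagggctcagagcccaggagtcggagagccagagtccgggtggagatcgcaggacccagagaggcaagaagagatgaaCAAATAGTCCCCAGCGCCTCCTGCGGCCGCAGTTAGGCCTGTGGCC
Hoxa5: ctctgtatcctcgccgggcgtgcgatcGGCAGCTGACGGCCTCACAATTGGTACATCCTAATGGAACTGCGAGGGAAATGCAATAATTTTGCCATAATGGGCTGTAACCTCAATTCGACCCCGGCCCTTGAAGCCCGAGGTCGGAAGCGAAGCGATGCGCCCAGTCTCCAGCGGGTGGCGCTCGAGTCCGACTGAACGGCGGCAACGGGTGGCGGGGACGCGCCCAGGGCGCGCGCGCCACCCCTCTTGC

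The Hoxd10 feature, chr2:74691532-74692032, covered all 250 bases and had 57.4, 48.9 and 32.2 CPM in endothelial-like nuclei of telogen, anagen and UVB. The Hoxd9 feature, chr2:74697717-74698217, covered the 46 bases nearest the start and had 55.5, 40.5 and 33.8 CPM there. The Hoxa5 feature, chr6:52204310-52204810, which also counts for Hoxa3 and Hoxa6, covered 223 bases and had 66.6, 20.3 and 35.5 CPM in keratinocyte-like nuclei. In melanocyte-like nuclei of anagen and UVB none of the 3 features passed 3.48 CPM. In telogen none of them had a count there, which allows up to 13.2 CPM. The stretches are rich in CpG, with 20 CpG pairs for Hoxd10, 13 for Hoxd9 and 28 for Hoxa5. Over whole promoters of 300 bases, the 24 listed for 22 Hox genes had a median GC content of 57.7%, against 52.7% for all 32851 promoters. The posterior HOX motif TTTATNG, searched on both strands, was in 2 of the 24 (Hoxb8 and Hoxd4) and in 10.9% of all promoters. The PBX-HOX motif TGATTNAT was in 2 (Hoxa2 and a Hoxd11 start) and in 3.22% of all, and the homeodomain core TAATTA was at both Hoxd11 starts and in 5.29% of all.

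Melanocyte-like nuclei had few counts in the Hox windows. The 205 features together held 20 counts in telogen, 443 in anagen and 562 in UVB, or 88.3, 95.5 and 130.2 CPM. The same windows had 1189, 1099 and 1040 CPM in fibroblast-like nuclei, 1133, 938 and 880 CPM in keratinocyte-like nuclei and 926, 778 and 739 CPM in endothelial-like nuclei. A set of 205 features with the mean level of all features would have 649 CPM. The melanocyte-like level was thus below, and the levels of the other 3 classes above, that of an average feature in each condition. With nuclei assigned by marker genes alone, endothelial-like nuclei of UVB had 480 CPM, under that level. Only 46.8% of those nuclei were in the endothelial-like class. Of the numbers in the barcode names (tag numbers), UVB number 9 of keratinocyte-like (492 CPM) and 11 of endothelial-like nuclei (632 CPM) also lay under it.

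**Figure D1:**
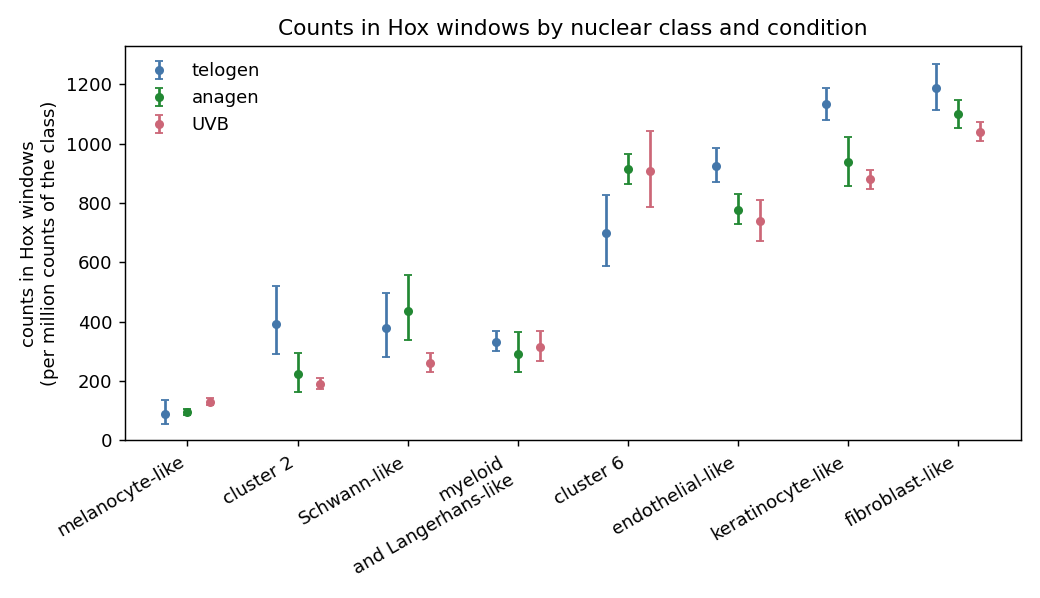
Counts in all Hox windows in CPM of the class (vertical axis), for each class (horizontal axis) and condition (colour); bars are exact 95% Poisson intervals, which cover counting error only. The melanocyte-like nuclei lie at 88.3 to 130.2 and the fibroblast-like, keratinocyte-like and endothelial-like nuclei at 739 to 1189.

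Ratios are given with exact conditional binomial 95% intervals, which cover counting error only and are too narrow because 61.1% of the entries above 0 were exactly 2. Over melanocyte-like nuclei the Hox sum was 13.5 times as high in fibroblast-like nuclei in telogen (8.67 to 22.2), 11.5 times in anagen (10.4 to 12.8) and 7.99 times in UVB (7.31 to 8.74). The keratinocyte-like ratios were 12.8 (8.29 to 21.1), 9.82 (8.63 to 11.2) and 6.76 (6.17 to 7.41). The endothelial-like ratios were 10.5 (6.76 to 17.3), 8.15 (7.27 to 9.15) and 5.67 (5.00 to 6.43). The gap was not alike in all 4 clusters. Endothelial-like HoxC was 1.10 times the melanocyte-like level in telogen (0.534 to 2.55), 1.50 times in anagen and 2.85 times in UVB. In UVB, fibroblast-like HoxB was 1.69 times (1.38 to 2.08) and keratinocyte-like HoxD 1.36 times (1.05 to 1.77) the melanocyte-like level. In telogen the fibroblast-like and keratinocyte-like sums were next to each other, with a ratio of 1.05 whose interval held 1 (0.967 to 1.14). Depth per nucleus differed between classes, with medians from 1048 to 4022 counts, so each nucleus was also thinned to 1000 counts. A Hox count was then found in 5.46%, 8.16% and 8.49% of melanocyte-like nuclei, in 55.1%, 60.3% and 57.7% of fibroblast-like, 58.5%, 53.8% and 42.0% of keratinocyte-like and 47.0%, 38.5% and 37.2% of endothelial-like nuclei. Shallower nuclei left out by thinning numbered 15, 62 and 94 of the melanocyte-like and 191, 390 and 176 of the endothelial-like nuclei; without thinning the melanocyte-like shares were 8.00%, 19.2% and 15.4%, and the endothelial-like shares 48.1%, 35.6% and 37.8%.

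Per feature, the Hox windows of melanocyte-like nuclei had 0.431, 0.466 and 0.635 CPM. In the same nuclei 10 fibroblast markers had 0.429 to 0.472 CPM per feature, 10 endothelial markers 0.409 to 0.788 and 13 keratinocyte markers 0.785 to 1.05. The marker lists of other cell types ranged more widely there, from 0.609 to 1.055 over skeletal muscle, 0.842 to 1.38 over T cell, 0.962 to 1.28 over myeloid and Langerhans, 1.39 to 2.14 over adipocyte and 1.76 to 2.61 over pericyte and smooth muscle markers. The 8 Schwann markers stood highest of these, at 2.86 to 3.18 CPM per feature. The part of other cell types in the melanocyte-like Hox counts was not tested. In telogen 26 of the 37 Hox genes with a feature had no count in melanocyte-like nuclei, and 4 fibroblast, 5 endothelial and 6 keratinocyte markers were at 0 too. A count of 0 there allows up to 13.2 CPM (3 counts of 226597).

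The other groups of nuclei lay above the melanocyte-like level. Schwann-like nuclei, like melanocytes a neural crest lineage, had 379, 438 and 262 CPM in Hox windows, and myeloid and Langerhans-like nuclei, of blood origin, 333, 291 and 315 CPM. Cluster 6, whose highest marker list was that of pericytes and smooth muscle, had 700.0, 914 and 908 CPM. Cluster 2, which held weak melanocyte and Schwann marker signal and stays unnamed, had 394, 223 and 190 CPM. Its intervals lay above those of melanocyte-like nuclei in each condition.

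The 4 clusters were used to different degrees in the 3 other classes. HoxC led in fibroblast-like nuclei, with 41.3%, 50.5% and 49.1% of their Hox counts, and was lowest in endothelial-like nuclei, with 4.72%, 4.99% and 8.93%. HoxD led in endothelial-like nuclei, with 43.9%, 41.3% and 37.7%, and was lowest in keratinocyte-like nuclei, with 5.26%, 8.47% and 4.13%. HoxA and HoxB together gave most keratinocyte-like Hox counts: HoxA had 44.3%, 23.8% and 41.7%, and HoxB 32.8%, 40.2% and 32.6%. These leads were not particular to the 3 classes. HoxC also led in cluster 6, with 52.6%, 51.7% and 52.2%. HoxD gave 35.3%, 31.3% and 32.7% in Schwann-like nuclei, with HoxA equal to it in telogen. Myeloid and Langerhans-like nuclei and cluster 2 were led by neither HoxC nor HoxD, apart from HoxC in anagen of cluster 2. In melanocyte-like nuclei of anagen and UVB no cluster had under 17.8% or over 33.3%. By features, 60 of the 69 in HoxC windows had their highest mean CPM in fibroblast-like nuclei, 33 of the 53 in HoxB and 29 of the 51 in HoxA in keratinocyte-like nuclei, and 21 of the 32 in HoxD in endothelial-like nuclei. Only 2 of the 205 were highest in melanocyte-like nuclei among these 4 classes.

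**Figure D2:**
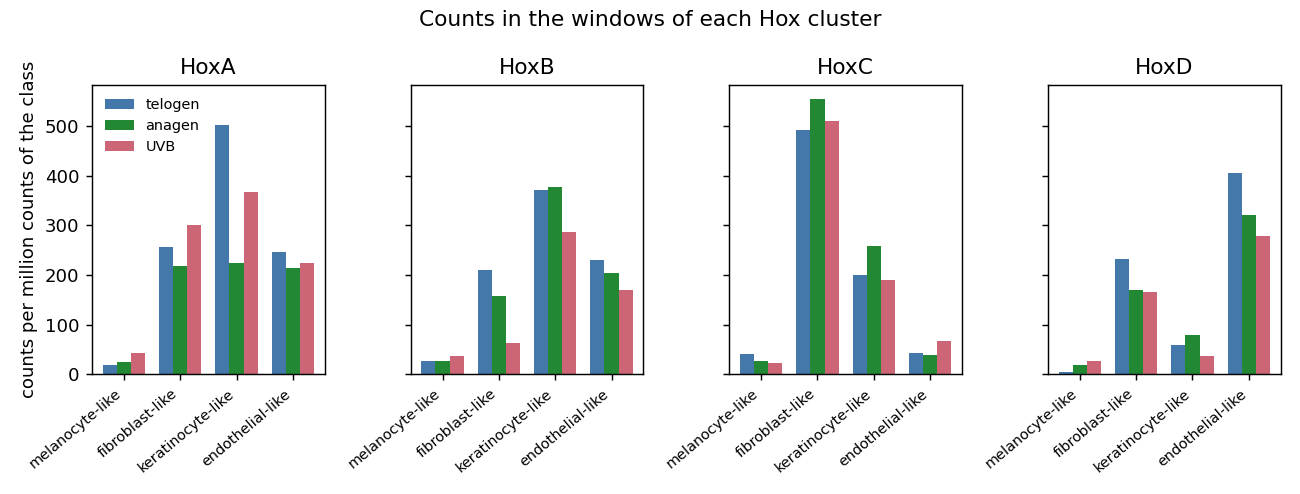
Counts in the windows of HoxA, HoxB, HoxC and HoxD (panels) in CPM of the class (vertical axis), by class (horizontal axis) and condition (colour); no error is drawn. HoxC stands highest in fibroblast-like nuclei (491 to 555 CPM) and HoxD in endothelial-like nuclei (278 to 406 CPM).

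By position within the clusters, features in windows of genes numbered 1 to 3 (51 features) held 43.8%, 31.5% and 42.4% of keratinocyte-like Hox counts that fall in 1 zone only. The genes numbered 4 to 8 (70 features) held 39.0%, 40.8% and 35.8% there, so in anagen they stood above the genes numbered 1 to 3. In fibroblast-like nuclei the genes numbered 4 to 8 held most, with 45.6%, 51.8% and 42.8%. In endothelial-like nuclei no zone passed 42.1%. The genes numbered 9 to 13 (65 features) held 28.1%, 27.3% and 39.4% in fibroblast-like nuclei and 17.3%, 27.7% and 21.8% in keratinocyte-like nuclei.

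A gene was called different between classes or conditions where both sides together had at least 30 counts, the ratio was at least 2-fold and the 95% interval did not hold 1. Of the 39 Hox genes, 12 were called higher in fibroblast-like than in melanocyte-like nuclei in all 3 conditions, against 9.01% of the 8553 genes of the genome that reached the minimum in all 3, and none lower (background 5.85%). In keratinocyte-like nuclei 11 were called higher (background 7.52%) and none lower (3.9%), and in endothelial-like nuclei 11 higher (6.66%) and none lower (3.7%). Members that reached the minimum in all 3 conditions numbered 13, 11 and 12, and since they could reach it through the higher class, the count is a description. Members that share features are also called in part on the same counts. Over the alternatives the counts ran from 1 to 13, 1 to 15 and 1 to 12, with 1, 1 and 2 after thinning and 4, 4 and 1 with nuclei assigned by marker genes alone. The fibroblast-like count was 7 without UVB tag number 19, a number in the barcode names, and 2 with telogen tag numbers 8 to 10 alone. One member was called the other way in 1 condition: Hoxd9 had 4.04 CPM in keratinocyte-like and 9.04 CPM in melanocyte-like nuclei of UVB, a ratio of 0.447 (0.224 to 0.841), where 13.5% of all tested genes were called lower. With no minimum, 25 of the 37 members with a feature had a higher CPM in all 3 conditions in fibroblast-like than in melanocyte-like nuclei. The numbers were 29 in keratinocyte-like and 26 in endothelial-like nuclei, and 17.9%, 22.7% and 22.0% of all genes with a feature were higher.

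HoxC genes led in fibroblast-like nuclei. Hoxc6 had 241, 305 and 249 CPM there and 17.7, 5.82 and 9.50 CPM in melanocyte-like nuclei (4, 27 and 41 counts), ratios of 13.7 (5.24 to 50.6), 52.4 (35.6 to 80.1) and 26.2 (19.2 to 36.8). Hoxc6 was also the highest of all Hox genes per kb of window in fibroblast-like nuclei, with a mean of 15.0 CPM per kb, followed by Hoxa9 with 12.0 and Hoxc5 with 8.45. In cluster 6 too the highest was Hoxc6, with 13.35 CPM per kb. Its strongest feature, chr15:102999067-102999567 in the gene body, had 56.9, 84.5 and 79.5 CPM in fibroblast-like nuclei and 31.1, 35.1 and 31.1 CPM in keratinocyte-like nuclei. Hoxc4 had 64.9, 67.4 and 33.8 CPM in fibroblast-like nuclei and 0, 3.02 and 1.16 CPM in melanocyte-like nuclei, so it was at least 4.90-fold higher in telogen and 22.3 (12.9 to 42.0) and 29.1 (12.2 to 91.3) times as high in anagen and UVB. Hoxc9 had 62.2, 57.3 and 80.3 CPM against 8.83, 4.96 and 2.78 CPM, with the smallest ratio in telogen, 7.05 (1.85 to 59.9) on 2 melanocyte-like counts. Hoxc5 and Hoxd3 followed. Hoxc5 (75.5, 56.3 and 56.4 CPM) had ratios of 5.70 to the floor in telogen and 18.7 and 13.5 in anagen and UVB. For Hoxd3 (114, 93.0 and 86.4 CPM) the ratios were 8.60 to the floor, 18.0 and 13.3. Hoxc5 and Hoxc6 share 4 features, which are counted for both, and Hoxc4 shares none. Hoxa9 had 91.4, 67.9 and 139 CPM in fibroblast-like nuclei and 0, 4.53 and 12.7 CPM in melanocyte-like nuclei. Its feature chr6:52227693-52228193 had 17.2, 22.1 and 35.4 CPM in fibroblast-like nuclei and 0, 0 and 0.865 CPM in keratinocyte-like nuclei. A count of 0 in keratinocyte-like nuclei allows up to 1.90 CPM in telogen and 5.54 CPM in anagen. The other leading feature, chr15:102999773-103000273 in the Hoxc6 body, had 34.4, 56.3 and 24.5 CPM in fibroblast-like nuclei and 0, 0.2155 and 1.16 CPM in melanocyte-like nuclei. The 0 in telogen allows up to 13.2 CPM.

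Per kb of window and by the mean of the 3 conditions, keratinocyte-like nuclei were led by HoxA genes. In anagen alone the order differed, with Hoxc13 (8.06 CPM per kb), Hoxb4 (7.51), Hoxb7 (7.33) and Hoxb6 (7.24) above Hoxa2 (4.89) and Hoxa6 (4.25). Hoxa6 had 103.4, 33.2 and 68.6 CPM in keratinocyte-like nuclei and 0, 3.02 and 3.94 CPM in melanocyte-like nuclei. The ratios were 7.81 to the floor of 3 counts in telogen, 11.0 (5.18 to 23.9) in anagen and 17.4 (10.7 to 30.4) in UVB. By that mean Hoxa6 stood highest (8.76 CPM per kb), before Hoxa2 (8.40) and Hoxa5 (7.79), a head-side and a middle gene of the cluster. Hoxa2 had 68.5, 31.4 and 61.7 CPM and Hoxa5 85.0, 22.2 and 52.5 CPM in telogen, anagen and UVB. Hoxa3, whose window of 48.0 kb also spans features of its neighbours, had 262, 90.5 and 178 CPM against 8.83, 10.1 and 15.1 CPM, ratios of 29.7 (8.17 to 246, on 2 melanocyte-like counts), 8.93 (5.86 to 13.6) and 11.8 (9.15 to 15.5). Of HoxB, Hoxb3 (165, 148 and 136 CPM) was 9.35, 13.4 and 9.61 times as high as in melanocyte-like nuclei, Hoxb4 (55.2, 55.4 and 35.5 CPM) 6.26, 23.4 and 6.38 times, and Hoxb6 (80.6, 92.3 and 57.1 CPM) 9.13, 20.4 and 4.93 times. The least certain of these was Hoxb4 in telogen (1.68 to 52.5), on 2 melanocyte-like counts.

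Endothelial-like nuclei were led by HoxD genes. Hoxd10 had 99.2, 72.6 and 51.5 CPM there and 4.41, 1.94 and 4.17 CPM in melanocyte-like nuclei, ratios of 22.5 (3.95 to 896, on 1 melanocyte-like count), 37.4 (18.8 to 84.6) and 12.4 (6.72 to 23.4). Hoxd8 had 87.4, 102.1 and 69.2 CPM against 0, 3.66 and 6.03 CPM. The ratios were 6.60 to the floor of 3 counts in telogen, 27.9 (16.7 to 49.4) in anagen and 11.5 (6.90 to 19.5) in UVB. Per kb Hoxd9 (12.7) and Hoxd8 (11.8) stood highest, before Hoxb7 (7.57). The feature chr2:74704814-74705314 in the Hoxd8 body had 47.3, 54.0 and 35.4 CPM and Hoxd9 as a whole 117, 78.5 and 49.9 CPM. Hoxa7 (53.7, 46.4 and 48.3 CPM) was 4.06 times the melanocyte-like floor in telogen. In anagen and UVB it was 26.9 and 26.0 times as high as in melanocyte-like nuclei. Hoxb7 (67.4, 81.8 and 45.1 CPM) was 5.09 times the floor in telogen and 25.3 and 10.8 times as high in the others. For Hoxd3 (105.6, 73.4 and 96.6 CPM) the ratios were 7.98 to the floor, 14.2 and 14.9. In melanocyte-like nuclei the highest members per kb, by the mean of the 3 conditions, were Hoxb2 (0.868), Hoxd9 (0.779) and Hoxb4 (0.758). For Hoxb2 and Hoxb4 the telogen values rest on 2 counts each and lie under the 13.2 CPM that a count of 0 allows. In anagen alone Hoxd9 was highest (0.936), and in UVB Hoxa9 (1.54) before Hoxd9 (1.40). Hoxb2 had 8.83, 3.88 and 3.94 CPM in melanocyte-like nuclei, Hoxd9 0, 6.03 and 9.04 CPM and Hoxb4 8.83, 2.37 and 5.56 CPM. The most counted feature of melanocyte-like nuclei, chr6:52221602-52222102 outside the Hoxa9 gene, held 46 counts, 4.49% of the melanocyte-like Hox counts. It had 14.1 and 38.6 CPM in fibroblast-like against 3.66 and 6.72 CPM in melanocyte-like nuclei of anagen and UVB. In telogen it had 10.6 CPM against 0, which lies under the 13.2 CPM that a count of 0 allows. The next were chr11:96318352-96318852 at Hoxb4 with 23 counts and the Hoxd9 feature described above.

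Some members had low sums in all 4 classes. Hoxb13, Hoxc12, Hoxa13, Hoxa11 and Hoxc11, all tail-side genes, had at most 9.31 CPM in any class and condition. Their windows hold only 1 to 4 features each. Per feature the level was not always low: the 1 Hoxa11 feature had 5.53 CPM in fibroblast-like nuclei of anagen, where Hox windows had 5.36 CPM per feature. Hoxc11 had 35 counts in fibroblast-like and 4 in melanocyte-like nuclei of UVB (9.31 and 0.927 CPM). Hoxd4 had counts almost only in endothelial-like nuclei, with 10.9, 8.44 and 17.7 CPM there, none in fibroblast-like and keratinocyte-like nuclei and at most 0.431 CPM in melanocyte-like nuclei. These are 12, 10 and 11 endothelial-like counts of 1 feature that also lies in the Hoxd3 window, so they are not particular to Hoxd4. Hoxb1 was at its highest in keratinocyte-like nuclei, with 6.98, 25.8 and 8.36 CPM, and had at most 1.29 CPM in the other classes. Hoxb13, Hoxc12, Hoxa13, Hoxa11, Hoxd4 and Hoxb1 had no count in melanocyte-like nuclei of telogen, where 0 allows up to 13.2 CPM.

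**Figure D3:**
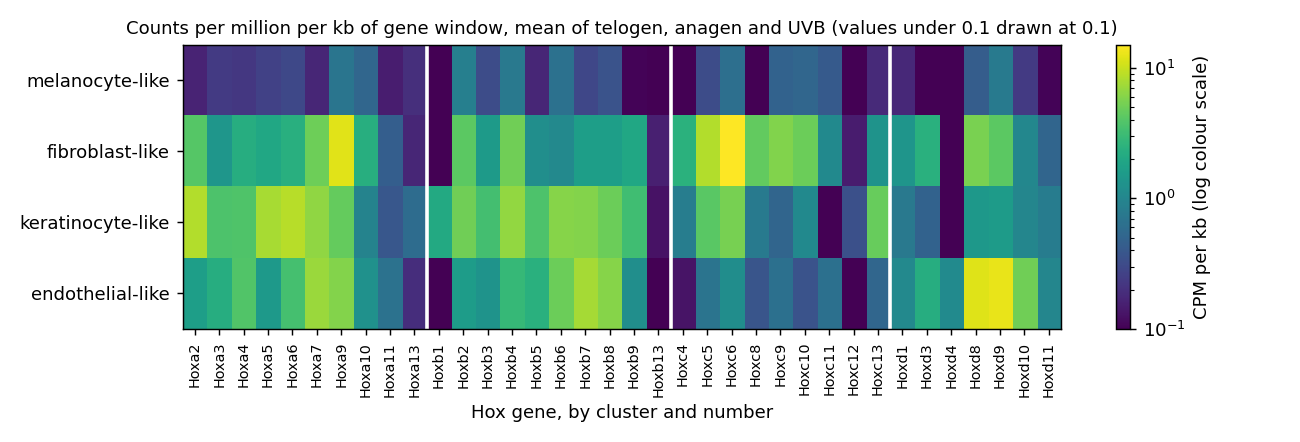
Mean of the 3 conditions of the CPM per kb of gene window (colour, log scale) for the Hox genes described here that have a feature (horizontal axis, by cluster and number) in the 4 classes (vertical axis). The brightest cells are Hoxc6 and Hoxa9 in fibroblast-like and Hoxd9 and Hoxd8 in endothelial-like nuclei, while no member passes 0.868 in melanocyte-like nuclei.

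Between the 3 other classes, members were called in both directions. From keratinocyte-like to fibroblast-like nuclei, 7 members were called higher in all 3 conditions (Hoxc9, Hoxd3, Hoxc10, Hoxd8, Hoxc4, Hoxc6 and Hoxa9; background 6.27%) and 4 lower (Hoxb6, Hoxb7, Hoxb5 and Hoxb8; background 8.22%). The mean log2 ratio was 3.83 for Hoxc9 and -2.54 for Hoxb6. All features of Hoxb5 and Hoxb7, 5 of 8 of Hoxb8 and 5 of 14 of Hoxb6 also lay in another Hox window. Calls of these members, here and in the next comparison, partly repeat the same counts. From fibroblast-like to endothelial-like nuclei, Hoxb7, Hoxd10, Hoxb6 and Hoxb8 were called higher (background 7.44%) and Hoxc4, Hoxc6, Hoxc5 and Hoxc9 lower (6.51%), with Hoxb7 at a mean log2 ratio of 2.72 and Hoxc4 at -4.32. From keratinocyte-like to endothelial-like nuclei, Hoxd9, Hoxd8, Hoxd3 and Hoxd10 were called higher (5.94%) and Hoxc13, Hoxc6 and Hoxb3 lower (6.49%). Hoxc13, a regulator of hair keratins, had 31.1, 94.2 and 38.3 CPM in keratinocyte-like nuclei and 1.82, 8.44 and 8.05 CPM in endothelial-like nuclei. Within the keratinocyte-like class it had 63.2, 102.8 and 46.4 CPM in cluster 5, which opens hair follicle genes such as Krt79 and Krt17, and 16.6, 47.3 and 32.1 CPM in cluster 3, which opens epidermal genes such as Krt1 and Casp14. The Hoxc13 ratio of cluster 5 over cluster 3 was 3.81 (2.06 to 7.23) in telogen and 1.45 (1.01 to 2.07) in UVB, and in anagen, with 4 counts in cluster 3, the interval held 1 (0.795 to 8.31).

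Between conditions, the Hox sum of melanocyte-like nuclei was 1.08 times as high in anagen as in telogen (0.692 to 1.79) and 1.48 times as high in UVB as in telogen (0.946 to 2.44), and both intervals held 1. No member was called in either: only 3 and 7 members reached the minimum, and 8.70% and 4.07% of tested genes were called higher and 7.86% and 3.0% lower. From anagen to UVB the sum was 1.36 times as high (1.20 to 1.55), and 4 members were called higher (background 5.57%) and none lower (11.3%). These were Hoxa9 (4.53 to 12.7 CPM), Hoxb6 (4.53 to 11.6), Hoxb4 (2.37 to 5.56) and Hoxa10 (3.88 to 8.58). Anagen counts came mostly from cluster 7 and UVB counts from cluster 1. Within cluster 1 the order was the other way, with 91.8, 197 and 129 CPM in telogen, anagen and UVB and a UVB over anagen ratio of 0.654 (0.510 to 0.850), and with nuclei thinned to equal depth the ratio was 0.947 (0.738 to 1.22). The labels do not explain the tag numbers. Across those with at least 20 nuclei the melanocyte-like Hox level ran from 35.7 to 91.0 CPM in telogen (2 numbers), 74.4 to 197 in anagen (7) and 22.5 to 205 in UVB (14), and the 3 ranges overlap.

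In fibroblast-like nuclei the HoxB windows were lower in UVB. They had 209, 157 and 62.8 CPM in telogen, anagen and UVB, a UVB over anagen ratio of 0.399 (0.335 to 0.474), while HoxC had 491, 555 and 511 CPM. The 7 members called lower from anagen to UVB were all of HoxB: Hoxb7, Hoxb5, Hoxb8, Hoxb3, Hoxb4, Hoxb9 and Hoxb6 (background 3.01%), and Hoxc13, Hoxd1 and Hoxa9 were called higher (3.65%). All features of Hoxb7, Hoxb5 and Hoxb4 also lay in another Hox window, as did 5 of 8 for Hoxb8, 7 of 19 for Hoxb3 and 5 of 14 for Hoxb6. Hoxb9 shared none. The HoxB calls thus partly repeat the same counts and are not 7 separate observations. Hoxb7 had 21.2, 19.1 and 2.13 CPM (16, 38 and 8 counts) and Hoxb8 26.5, 18.1 and 4.52 CPM. From telogen to UVB, Hoxb8, Hoxb3, Hoxb4, Hoxb2 and Hoxd10 were called lower (2.57%) and none higher (3.77%); from telogen to anagen, Hoxa7, Hoxc13, Hoxd9 and Hoxd10 lower (3.22%) and none higher (3.62%). The lower HoxB level held in both fibroblast-like clusters, with UVB over anagen ratios of 0.377 (0.310 to 0.459) in cluster 4 and 0.486 (0.334 to 0.707) in cluster 10, the latter opening dermal papilla genes such as Alx4 and Fgf10. However, 717 of the 803 UVB fibroblast-like nuclei carried tag number 19, with 62.9 CPM, and the other UVB number with at least 20 nuclei had 37.6 CPM. Tag number 19 gave 529 of the 590 UVB nuclei of cluster 4 and 188 of the 213 of cluster 10. The ratios of the 2 clusters therefore cannot tell UVB from the tag. Of the 9 telogen and anagen numbers, 7 lay between 117.7 and 233 CPM and 2 had no HoxB count in 22789 and 57168 counts, so the ranges overlap; the part of the tag in the difference was not tested.

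**Figure D4:**
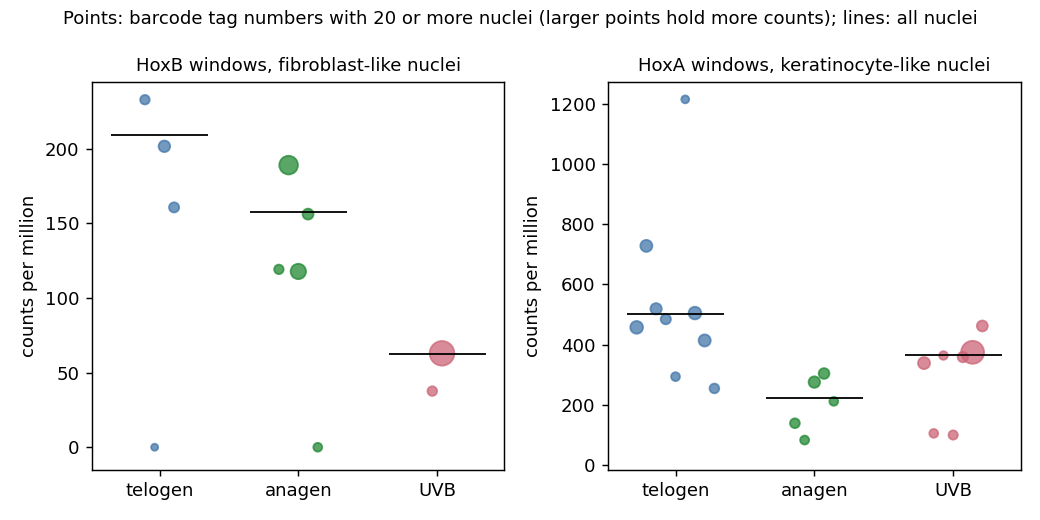
Counts in HoxB windows of fibroblast-like nuclei (left) and HoxA windows of keratinocyte-like nuclei (right) in CPM (vertical axes) by condition (horizontal axis). Each point is 1 barcode tag number with at least 20 nuclei and the line is the level over all nuclei; the 2 UVB points on the left lie at 37.6 and 62.9.

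In keratinocyte-like nuclei the HoxA windows were lowest in anagen, with 503, 223 and 367 CPM, an anagen over telogen ratio of 0.444 (0.364 to 0.539). Members called lower from telogen to anagen included Hoxa5, Hoxa6, Hoxa3, Hoxa4, Hoxc5 and Hoxa2 (background 9.14%), and Hoxc13 and Hoxd3 were called higher (7.27%). All features of Hoxa4, Hoxa5 and Hoxa6 and 12 of the 24 of Hoxa3 also lay in another Hox window. The HoxA calls thus partly repeat the same counts. From anagen to UVB, members called higher included Hoxa5, Hoxc5 and Hoxa6 (6.41%) and Hoxb1, Hoxd3 and Hoxc13 lower (6.78%), and from telogen to UVB only Hoxd8 and Hoxa4 were called, both lower (3.54%; 6.0% of genes higher). Hoxa5 had 85.0, 22.2 and 52.5 CPM in telogen, anagen and UVB. The make-up of the class also differed: cluster 5 gave 264 of the 328 anagen nuclei but 178 of the 438 in telogen. HoxA had 591 CPM in cluster 5 and 463 CPM in cluster 3 in telogen, and 208 and 308 CPM in anagen. The part of the make-up in the difference was not tested. Within cluster 5 the anagen over telogen ratio of HoxA was 0.352 (0.276 to 0.445) and within cluster 3 it was 0.665 (0.430 to 0.986), on 26 anagen counts. By tag number the HoxA level ran from 255 to 1214 CPM in telogen (9 numbers), 83.2 to 304 in anagen (5) and 100.0 to 462 in UVB (7), and these ranges overlap. In UVB, 1110 of the 1444 keratinocyte-like nuclei carried tag number 19, with 374.5 CPM, so the UVB values of this class rest mostly on it.

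In endothelial-like nuclei HoxD was lower in anagen and UVB than in telogen, with 406, 321 and 278 CPM. The UVB over telogen ratio was 0.686 (0.572 to 0.819). By tag number with at least 20 nuclei it ran from 316 to 522 CPM in telogen, 190 to 390 in anagen and 239 to 378 in UVB. These ranges overlap. The whole Hox sum of the class was lower too, at 0.840 times telogen in anagen (0.768 to 0.919) and 0.798 times in UVB (0.713 to 0.892). From telogen to anagen Hoxd11 was called lower (background 3.24%) and none higher (2.2%), from telogen to UVB Hoxd9 and Hoxb6 lower (3.76%) and none higher (3.48%), and from anagen to UVB none either way (3.88% higher, 2.84% lower). Hoxd9 had 117, 78.5 and 49.9 CPM.

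MicroRNA genes lie within the clusters and are read through the same features. Their mature 5p forms fall into 2 seed groups, and the seed (bases 2 to 8) is in capitals below, from RefSeq.
miR-196a-5p: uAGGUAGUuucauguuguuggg
miR-196b-5p: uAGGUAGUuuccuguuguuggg
miR-10a-5p: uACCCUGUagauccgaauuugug
miR-10b-5p: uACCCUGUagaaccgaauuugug
The window of Mir196b, in HoxA, had 25.2, 31.7 and 48.7 CPM in fibroblast-like nuclei against 0, 0.43 and 2.09 CPM in melanocyte-like nuclei, and that of Mir196a-2, in HoxC, 6.62, 9.55 and 11.2 CPM against 0, 1.51 and 0.23 CPM. The window of Mir10a, in HoxB, had 21.6, 7.38 and 11.0 CPM in keratinocyte-like nuclei, and that of Mir10b had no feature. Mir196a-1, in HoxB, had no count in fibroblast-like and melanocyte-like nuclei. In fibroblast-like against melanocyte-like nuclei, Mir10a and Mir196b reached the minimum in anagen and Mir196a-2 and Mir196b in UVB. Each of these was called higher, where 13.3% and 14.0% of tested genes were.

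Genes that work with or on the Hox clusters were called in both directions. In telogen, anagen and UVB, 15.9%, 13.3% and 14.0% of tested genes were called higher and 16.4%, 23.6% and 17.6% lower in fibroblast-like than in melanocyte-like nuclei. In keratinocyte-like nuclei 17.8%, 14.4% and 18.2% were called higher and 12.7%, 15.0% and 13.5% lower, and in endothelial-like nuclei 15.8%, 13.6% and 12.2% higher and 10.0%, 18.3% and 11.7% lower. Of the 11 TALE-class cofactors, Meis2, of the MEIS family, was called higher in each of the 3 other classes in all 3 conditions, with 78.1, 87.5 and 81.9 CPM in fibroblast-like and 22.1, 21.1 and 34.8 CPM in melanocyte-like nuclei. Tgif2 was called lower in fibroblast-like nuclei in all 3 conditions. In keratinocyte-like nuclei Pbx4 was also called higher in all 3, with 146.6, 62.8 and 103.2 CPM against 26.5, 23.7 and 16.5 CPM in melanocyte-like nuclei. Pbx3, of the same PBX family, was called lower there in all 3, with 49.5, 35.1 and 36.0 CPM against 110.3, 99.6 and 99.4 CPM. Of 19 Polycomb genes, 1 to 3 were called higher and 1 to 3 lower in fibroblast-like nuclei, with list medians of 0, -0.27 and -0.27 (log2) against -0.15, -0.3 and -0.34 for all genes tested. In keratinocyte-like nuclei 1, 3 and 1 Polycomb genes were called higher and 3, 2 and 2 lower, and in endothelial-like nuclei 3, 4 and 2 higher and 1, 3 and 0 lower. Of 8 Trithorax and H3K27 demethylase genes, none was called higher and 1 or 2 lower in fibroblast-like and in keratinocyte-like nuclei. Wdr5, a subunit of the H3K4 methyltransferase complexes, was called lower in keratinocyte-like nuclei in all 3 conditions, with ratios of 0.345, 0.315 and 0.408. In endothelial-like nuclei Men1 was called higher in telogen and Kdm6b in anagen, and none lower. Of the 12 genes bordering the clusters, 6, 8 and 8 reached the minimum in fibroblast-like against melanocyte-like nuclei. Hibadh was called lower in telogen, none either way in anagen, and in UVB Skap1 higher and Mtx2 and Lnpk lower. In endothelial-like nuclei, where 9 reached it, Skap1 and Calcoco2, which border HoxB, were called higher in all 3 conditions. Calcoco2 had 75.6, 55.7 and 57.9 CPM there and 8.83, 1.72 and 1.39 CPM in melanocyte-like nuclei, and Skap1 was 4.64, 4.24 and 4.86 times as high. Snx10, near HoxA, was called lower in endothelial-like and in keratinocyte-like nuclei in all 3 conditions. The remaining border calls were Ttll6, higher in telogen endothelial-like and UVB keratinocyte-like nuclei, and Smug1, lower in UVB endothelial-like nuclei.

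Other transcription factors of positional identity split between the classes. Of 18 such genes, Tbx15, En1, Emx2, Prrx1 and Prrx2 were called higher in fibroblast-like than in melanocyte-like nuclei in all 3 conditions, as were 9.01% of genes that reached the minimum in all 3. Tbx15, a T-box factor of dorsal skin patterning, had 481, 413 and 469 CPM in fibroblast-like and 13.2, 27.4 and 15.8 CPM in melanocyte-like nuclei, and En1, known for dorsal dermis, 76.8, 85.0 and 77.4 against 8.83, 4.31 and 6.49 CPM. Another pair of the list was highest in melanocyte-like nuclei: Alx1 had 92.7, 113 and 147 CPM there and at most 18.5 CPM in the other 3 classes, and Tbx4 had 53.0, 47.9 and 45.7 CPM there and at most 11.3 CPM elsewhere. Both were called lower in the 3 other classes in anagen and UVB, and in telogen they did not reach the minimum.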

How the data were processed

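Single-nucleus ATAC-seq of 3 libraries was deposited as whole-number counts per feature of 500 bases and nucleus, 1 matrix per condition. Bowtie2, SAMtools, MACS2 and mm10 (GRCm38) are named in the submitters' processing notes, without versions; the counting step, filters on nuclei and treatment of doublets are not stated in these sources. The Hox members, lists and rules were chosen with earlier results of these data known.

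Where 2 entries of a condition had the same barcode sequence and shared over 30% of the open features of the smaller, the shallower entry was dropped (543, 1721 and 61 entries). Pairs with different barcode sequences over the same limit (1974, 453 and 1) were not used to drop entries. Doublets were not called, and an alternative drops nuclei with over 3 times their condition's median. Features (163413, none within 100 kb of a Hox gene) were weighted by TF-IDF, reduced to 30 components and clustered by Leiden (resolution 0.6, 15 neighbours, seed 1). A cluster name needed at least 3 markers at 2-fold, the highest median of all lists and a lead of 0.3 (log2); cluster 6 passed as pericyte and smooth muscle but has no such marker among its top 10 genes, so it is given by number (decided once its genes had been seen). Counts were summed per class and condition and divided by the class total (CPM); a class at 0 was set to a floor of 3 counts per class and condition for ratios. Named genes were the top 3 members per kb of each class, up to 5 members called in all 3 conditions with the largest mean log2 ratio, those called between conditions (up to 5 per direction by the rule; more are named), and the top 3 features per class. Values of 1 member are not reported here, though the sums and counts include it. The ratio rule was tested on simulated Poisson counts. These lack the excess of entries of exactly 2, so the test does not give the error rate of the calls in these data. Tools were Python 3.11.15, numpy 2.4.6, scipy 1.17.1, scikit-learn 1.9.0 and leidenalg 0.10.2. The 14 planned and 2 added alternatives are described in the closing section.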

Additional observations from a re-analysis of the deposited data

Results flagged for a closer look

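Each of these is a pair of classes whose Hox sums moved in opposite directions between the same 2 conditions, both with an interval off 1; with 1 sample per condition the difference between the classes was not tested. From anagen to UVB the sum over all Hox windows had a ratio of 1.36 in melanocyte-like and 0.947 (0.898 to 0.998) in fibroblast-like nuclei. Within melanocyte-like cluster 1 alone the ratio was 0.654 (0.510 to 0.850), and thinned to equal depth the melanocyte-like ratio was 0.947 (0.738 to 1.22). HoxB had 1.39 in melanocyte-like nuclei against 0.399 in fibroblast-like and 0.761 in keratinocyte-like nuclei. HoxC had 1.70 (1.09 to 2.65) in endothelial-like nuclei, on 41 UVB and 46 anagen counts, against 0.921 in fibroblast-like and 0.735 in keratinocyte-like nuclei. HoxD had 1.405 in melanocyte-like against 0.458 in keratinocyte-like nuclei. Within cluster 1 alone HoxB went from 55.5 CPM in anagen to 34.0 CPM in UVB and HoxD from 33.3 to 27.2 CPM, so the opposite direction of the melanocyte-like class was not seen there for either.

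From telogen to UVB, HoxA had 1.17 in fibroblast-like against 0.730 in keratinocyte-like nuclei. HoxD had 6.04 in melanocyte-like nuclei, with an interval of 1.06 to 241 because telogen held 1 count, against 0.717 in fibroblast-like, 0.609 in keratinocyte-like and 0.686 in endothelial-like nuclei. The melanocyte-like values rest on cluster 7 in anagen and cluster 1 in the other conditions.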

How the results depend on the processing

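Each of the 9 class ratios of the Hox sum kept its direction and an interval above 1 under all alternatives run, from 3.86 to 21.5. The ratios between conditions in melanocyte-like nuclei did not. Anagen over telogen was 0.913 with clustering seed 3, 0.440 with nuclei assigned by marker genes and 0.518 with cluster 2 counted as melanocyte-like, and its interval lay above 1 at 1.59 scaled to housekeeping gene ends and 2.15 with cluster 1 alone. UVB over telogen was 0.607 by marker genes and 0.775 with cluster 2, and its interval lay above 1 at 2.15 within 1 kb of gene ends, 1.47 with all deposited nuclei, 1.78 on housekeeping scale and 2.13 on telogen tag numbers 8 to 10. UVB over anagen was 0.947 thinned, 0.974 without deep nuclei, 0.654 with cluster 1 alone and 1.12 with an interval that held 1 on housekeeping scale. The cause was not tested.

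Hox genes called higher than in melanocyte-like nuclei in all 3 conditions numbered, for fibroblast-like, keratinocyte-like and endothelial-like nuclei, 7, 6 and 7 over gene bodies only, 4, 4 and 1 by marker genes, and 1, 1 and 2 when thinned. Fibroblast-like and keratinocyte-like counts were 7 and 4 with entries above 0 counted as 1, 4 and 6 without deep nuclei, and 2 and 7 on telogen tag numbers 8 to 10. Within 1 kb of gene ends the fibroblast-like count was 4 and the endothelial-like 6, the keratinocyte-like count was 7 over features in 1 Hox window only, and without UVB tag number 19 the fibroblast-like count was 7. Fewer counts reach the minimum in these settings. Of 15 results under 16 alternatives, 192 of 226 values kept their direction and side. Cluster 2 and cluster 1 alone were added after seeing the data. No paired analysis was possible because each condition has 1 sample.

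The shallowest condition differs by class: melanocyte-like nuclei have 226597 counts in telogen, keratinocyte-like 541665 in anagen and endothelial-like 621335 in UVB.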
